A study of Mus musculus with 24 samples.

Results

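The m6A enrichment of nuclear RNA was compared between the mouse embryonic stem (ES) cell lines WT26 and RBC, the parental lines of the Mettl14 KO and Mettl3 KO clones of the same series. Enrichment is the log2 ratio of normalised read counts in the m6A immunoprecipitate (IP) over the input, and the difference between lines is (RBC IP − RBC input) − (WT26 IP − WT26 input), so that a positive value means a higher enrichment in RBC. The members are all autosomal genes and all repeat subfamilies of the MeRIP-seq count table: 43008 autosomal genes and 1153 repeat subfamilies of 49090 rows. A filter on low counts kept 20584 of these genes and 1097 of these repeats, together 21681 of the 22621 rows tested. They were measured in 8 libraries of the controls, an input and an IP in each of 2 biological replicates per line, out of 16 MeRIP-seq libraries and 24 samples in the series.

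WT26 is a wild-type line of a mixed 129/Sv and C57Bl6 background. RBC has the same mixed background but carries a BirA-V5 transgene in the Rosa26 locus and a Cre-ERT2 recombinase, so it is a line with intact Mettl3 and Mettl14 and not an unmodified one. Both lines were grown with serum replacement and LIF on gelatin, and no treatment, age or sex separates them in the labels. Each line is 1 line, so differences between RBC and WT26 cannot be told apart from differences between any 2 cultures of different history. The RNA of each replicate was treated with DNase and sonicated, and 3 MeRIP reactions were combined into 1 IP library.

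The 8 control libraries held 13181389 to 28441282 reads, of which 28.1 to 41.8% fell on repeats and 13 to 35.5% on the 10 largest rows. The pluripotency genes Pou5f1, Esrrb and Zfp42 each reached 1073.3 or more normalised reads in every control library. Of genes that define other cell types, Gata4 had 4.5 to 28.8, Gata6 8.6 to 42.4, Sox7 7.6 to 23.6 and Sox17 1.1 to 6.3 normalised reads in the inputs for primitive endoderm, Cdx2 had 0 in all 4 and Krt8 16.4 to 40.1 for trophoblast, and Col3a1 had 0 to 7.6, Col1a1 6.3 to 30.4 and Thy1 11.4 to 59.6 for fibroblasts. The 6 basement membrane and matrix genes of the primitive endoderm list, Sparc, Lama1, Lamb1, Lamc1, Col4a1 and Col4a2, were well above these in both lines, at 333.2 (Col4a2 in RBC) to 13269.7 (Lamc1 in RBC). Col4a1 had 2774.4 and 2628.5 in WT26 and 983.6 and 807.8 in RBC. The part of other cells in the results was not tested.

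N6-methyladenosine (m6A) is the most common internal modification of eukaryotic mRNA. It is placed co-transcriptionally by a writer complex around METTL3 and METTL14, mainly in the DRACH context, of which GGACT is a preferred form, and it is concentrated in long internal exons and near stop codons and in 3′ UTRs. In ES cells, transcripts of pluripotency regulators and other short-lived mRNAs are known to carry it, and reader proteins of the YTH family bind it. In an m6A IP, RNA fragments that carry the mark are pulled down with an antibody, and a transcript with much m6A therefore has more reads in the IP than in the input.

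Klf4, Sox2 and Nanog, pluripotency genes with well-known m6A serve as reference points here. For each, the GGACT site closest to the 3′ end of its longest annotated transcript is shown here with 8 bases on either side, the motif in capitals, taken from the GENCODE transcripts of GRCm38.
Klf4: acatgcccGGACTtacaaaat
Sox2: tttttgggGGACTatttttgt
Nanog: tgccagctGGACTagtttaaa
The Klf4 site is at chr4:55527794-55527814 on the minus strand, the Sox2 site at chr3:34651600-34651620 on the plus strand and the Nanog site at chr6:122714586-122714606 on the plus strand, and all 3 are in 3′ UTRs. The transcripts hold 5, 3 and 4 GGACT motifs and 68, 37 and 57 DRACH matches in 3029, 2057 and 2211 bases, respectively. GGACT is not rare: 92.7% of 14222 protein-coding genes tested have at least 1 on the transcript strand. The count table is per gene, so it does not say which of these sites carries the mark.

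Klf4, a transcription factor of naive pluripotency, was enriched in both lines. Its normalised read counts in WT26 were 1313.8 and 1544.4 in the input and 3649.1 and 8437.1 in the IP of replicates 1 and 2, and in RBC they were 1093.8 and 1678.7 in the input and 2956.6 and 9339.4 in the IP. This gave an enrichment of 1.47 and 2.45 in WT26 and of 1.43 and 2.48 in RBC, so the lines overlapped and the replicates differed more than the lines. The fitted difference was 0.07 on the log2 scale, with a 95% interval of −1.48 to 1.61. Sox2, another core pluripotency factor, lies within the transcript Sox2ot and had an enrichment of 1.44 and 2.40 in WT26 and of 1.37 and 2.66 in RBC (difference 0.13, interval −1.11 to 1.37). For Nanog, the homeobox factor of the naive state, the values were lower in both lines, 0.73 and 1.47 in WT26 and 0.58 and 1.42 in RBC (difference −0.03, interval −1 to 0.93).

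No gene or repeat passed the test for a difference in enrichment between the lines. The main fit did not pair replicates by number, so its spread includes the difference between replicate numbers. The intervals given for single features come from this fit unless a block is named. With edgeR's quasi-likelihood test and Benjamini-Hochberg adjustment over all rows tested, 0 of 20584 genes and 0 of 1097 repeats had an adjusted p of at most 0.05 (0% of 21681), and the lowest adjusted p was 1. At an unadjusted p under 0.05 there were 117 genes (0.568%, 66 higher and 51 lower in RBC) and 6 repeats (0.547%, 4 higher and 2 lower), where p-values spread evenly would give 5%. DESeq2 on the same libraries also called 0 genes and 0 repeats, with 63 and 5 at an unadjusted p under 0.05. A fit with the replicate number as a block, chosen after seeing the data, called 0 as well but had 273 genes (1.33%) and 34 repeats (3.1%; 27 higher and 7 lower in RBC) at an unadjusted p under 0.05, and a lowest adjusted p of 0.411.

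How far 0 calls speak for agreement depends on the width of the intervals. Among the 12162 genes with a mean of at least 50 normalised reads, the 95% interval of the difference lay within ±1 on the log2 scale for 4630 genes (38.1%) and within ±2 for 11619 (95.5%), and its median half-width was 0.958. When replicate number was a block, the share within ±1 was 80.1% and the half-width 0.591. Thus, in the main fit, a 4-fold difference in enrichment lay outside the interval for most of these genes, whereas a 2-fold difference lay inside it for more than 6 in 10. With the block, a 2-fold difference also lay outside the interval for most of them. In the same main test, the Mettl3 KO clone against RBC and the Mettl14 KO clone against WT26, which share the control libraries analysed here, also gave 0 called features, with 755 and 122 at an unadjusted p under 0.05. With the number block in edgeR they gave 0 and 1 called features, with 4422 and 343 at an unadjusted p under 0.05.

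Across genes, the fitted enrichments of the lines followed each other closely. Pearson's r was 0.87 over all 20584 genes, 0.969 over the 12162 genes with a mean of at least 50 normalised reads and 0.983 over the 3926 genes with at least 500. Over repeats it was 0.878 for all 1097, 0.947 for the 939 with a mean of at least 50 and 0.967 for the 532 with at least 500. These are correlations across features that share gene length and sequence between the lines, and genes are not independent replicates. The labels do not say whether the lines shared an IP batch. Genes with the largest fitted differences had libraries without reads: in RBC, Hist1h2ap had 0 reads in both inputs, and its fitted difference of 8.09 is set by those zeros.

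**Figure D1:**
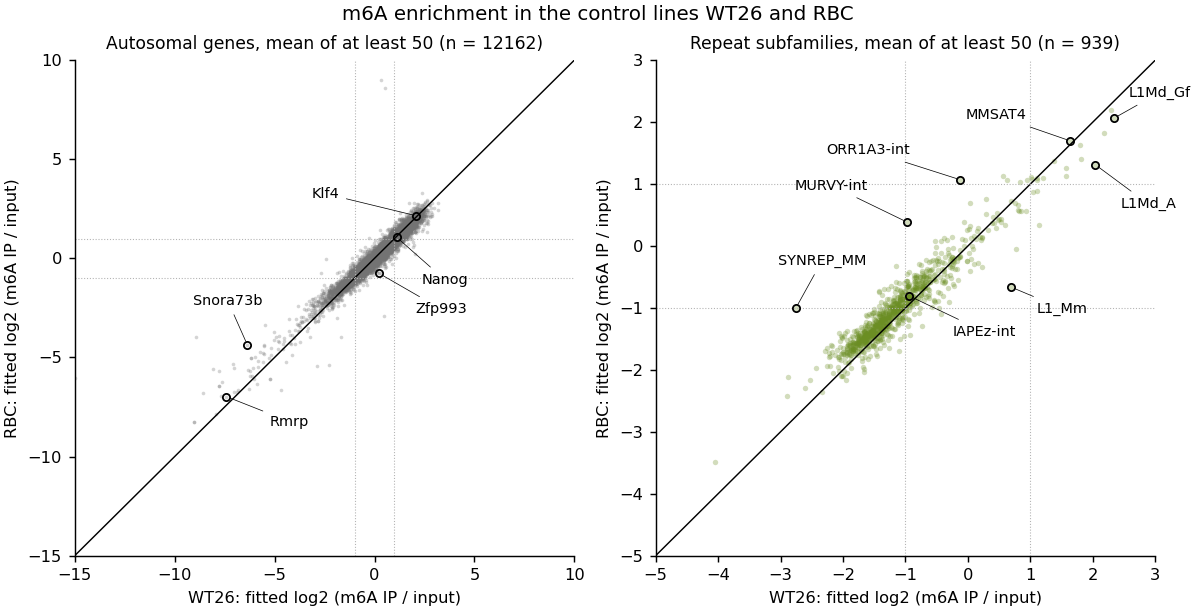
Fitted log2 ratio of m6A IP over input in WT26 (x axis) and RBC (y axis), for genes (left) and repeat subfamilies (right) with a mean of at least 50 normalised reads in the control libraries. Each point is 1 feature, the diagonal marks equal enrichment and the dotted lines mark a log2 ratio of 1 and −1. The points follow the diagonal in both panels (r = 0.969 over 12162 genes and 0.947 over 939 repeats), with most repeats below 0 and with MURVY-int, ORR1A3-int, SYNREP_MM and L1_Mm away from the line.

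The lines resembled each other more than the replicates of either line did. In genes with a mean of at least 50, the median absolute difference in enrichment between RBC and WT26 was 0.159 in replicate 1 and 0.178 in replicate 2, whereas between replicates 1 and 2 it was 0.53 in WT26 and 0.556 in RBC. Pearson's r between lines was 0.925 in replicate 1 and 0.96 in replicate 2, and between the replicates it was 0.885 in WT26 and 0.868 in RBC. When replicate 1 of one line was set against replicate 2 of the other, r was 0.894 and 0.864. Enrichments spread further from 0 in replicate 2, with a standard deviation of 1.4 in WT26 and 1.36 in RBC against 0.892 and 0.819 in replicate 1. The deviations of the IP libraries from their group means were correlated between the lines (r = 0.802 over 13662 features), those of the inputs less so (0.248). The source of the difference between replicate numbers was not tested.

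**Figure D2:**
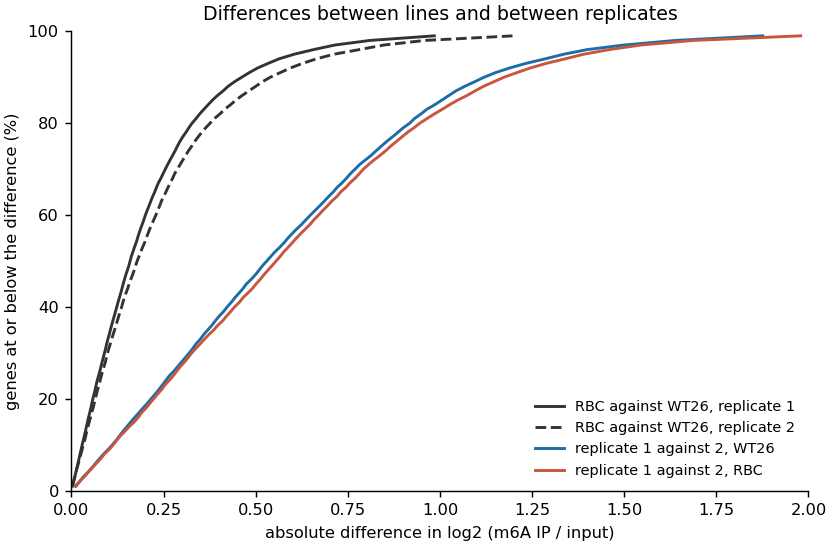
Share of genes (y axis, in percent; genes with a mean of at least 50 normalised reads) whose absolute difference in log2 enrichment is at or below the value on the x axis, for RBC against WT26 within a replicate number (dark lines) and for replicate 1 against 2 within a line (coloured lines); curves end at the 99th percentile. The curves of the lines rise faster, with medians of 0.159 and 0.178, than those of the replicates, with medians of 0.53 and 0.556.

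The genes called enriched were largely shared. Enriched means here a log2 ratio above 1 and depleted a ratio under −1, each called in the line's own contrast where the adjusted p does not exceed 0.05. In WT26 3126 genes were enriched and in RBC 2895, and 2478 were enriched in both, 79.3% of the WT26 list and 85.6% of the RBC list. Depleted genes numbered 2337 in WT26 and 1930 in RBC, with 1560 in both (66.8% and 80.8%). No gene or repeat was enriched in 1 line and depleted in the other. Over all 21681 features, 14.5% were enriched in WT26 and 13.4% in RBC, and 13.7% and 11.2% were depleted.

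Genes called in 1 line alone nearly all had the same sign in the other. Of 648 genes enriched in WT26 alone, 642 had a positive enrichment in RBC and 320 were past the 2-fold limit there too, and their median was 1.44 in WT26 and 0.999 in RBC. Of 417 genes enriched in RBC alone, 410 were positive in WT26 and 191 past the 2-fold limit, with a median of 1.48 in RBC and 0.99 in WT26. No gene of the 20584 passed the test for a difference, so none of these did. Of the 648 and 417 genes, 11 and 14 had an unadjusted p under 0.05 (edgeR), against 117 of all 20584. The calls depended on replicate 2: without WT26 replicate 2, 0 features were called enriched in WT26, and without RBC replicate 2, 0 were called in RBC, whereas without replicate 1 of the respective line 2327 and 2509 were called. Calling depends on the scaling too, since size factors from repeat rows shifted the median enrichment of all features to 1.41 in WT26 and 1.28 in RBC, from 0.0184 and 0.0178, and all enrichments here are relative to the typical feature.

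Protein-coding genes enriched in both lines had fewer exons than all genes tested. The 2121 such genes had a median of 5 exons, 3700 exonic bases and a longest exon of 2310 bases, against 9 exons, 4320 exonic bases and 1947.5 bases over all 14222 protein-coding genes tested, and 9.57% of them were single-exon genes against 3.63%. The 497 depleted in both lines had a median of 16 exons, 6276 exonic bases and a longest exon of 2162 bases, so the longest exon was longer in both sets than over all genes. Both lines showed the same gradient: genes with 1 to 4 exons had a median enrichment of 1.10 in WT26 and 1.08 in RBC, and 1009 of 2892 were enriched in both, whereas genes with 19 to 345 exons had a median of −0.233 and −0.195, and 79 of 2695 were enriched in both.

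The density of motifs separated genes less than exon number did. GGACT occurred at a median of 1.08 per kb in genes enriched in both lines, 1.05 per kb in all genes and 0.894 per kb in genes depleted in both, and DRACH at 20.1, 20.1 and 19.8 per kb. From the lowest to the highest quintile of GGACT density, the median enrichment went from 0.182 in both lines to 0.426 in WT26 and 0.406 in RBC. With the main scaling, the median difference between the lines was within 0.05 of 0 in every quintile of exon number, exonic length, longest exon, GGACT density, DRACH density and mean level. Other scalings moved it, to −0.142 in the lowest quintile of exonic length with size factors from repeat rows. With TMM it was 0.0966 in the highest quintile of exon number.

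Gene groups had similar median enrichments in both lines. No member of any list passed the test for a difference, and 4 members had an unadjusted p under 0.05: the histone genes Hist1h4i and Hist2h2aa2, the zinc finger gene Zfp993 and the small nucleolar RNA Snora73b. Over all 20584 genes, 12% were enriched in both lines.

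The Zfp genes, which mostly encode KRAB-type and other zinc finger DNA-binding proteins, had the most enriched members among the lists. Of 375 tested, 260 were enriched in WT26, 260 in RBC and 245 in both, with a median enrichment of 1.42 and 1.45, against 0.0871 and 0.0806 over all genes. Zfp281, a zinc finger factor of ES cells, had an enrichment of 1.41 and 2.43 in WT26 and of 1.36 and 2.41 in RBC. The median difference between lines over the group was 0.00302.

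Immediate early and other short-lived mRNAs had a median enrichment of 1.46 in WT26 and 1.58 in RBC, and 17 of 28 were enriched in both lines. Ier2, an immediate early gene, had normalised read counts of 666.3 and 579.9 in the WT26 inputs and 2330.2 and 4140.7 in the WT26 IPs, and of 704.9 and 566.7 in the RBC inputs and 2091.8 and 4584.7 in the RBC IPs. Its enrichment was 1.81 and 2.83 in WT26 and 1.57 and 3.02 in RBC (difference 0.02, interval −1.5 to 1.53). Junb, a subunit of the AP-1 factor, followed with 1.64 and 2.59 in WT26 and 1.56 and 2.94 in RBC. The proto-oncogene Myc had 1.30 and 2.55 in WT26 and 1.35 and 2.65 in RBC. In each of these genes replicate 1 of both lines was low and replicate 2 of both was high.

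Not all members of this group were called. Fos, the classical serum-response gene, differed between cultures in its input, at 77.0 and 218.0 normalised reads in WT26 and 67.5 and 387.5 in RBC, and its enrichment was 0.48 and 1.23 in WT26 and 0.78 and 1.19 in RBC, which did not pass the test in either line (adjusted p = 0.363 and 0.344).

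Among naive pluripotency genes, 10 of 19 were enriched, the same 10 in both lines, and 2 were depleted in both. Klf2, a Krüppel-like factor of the naive state, had an enrichment of 1.81 and 2.76 in WT26 and of 1.52 and 2.88 in RBC, although its input was lower in RBC (312.5 and 424.1 normalised reads) than in WT26 (564.9 and 484.5). Gbx2, a homeobox gene downstream of LIF and STAT3, had 1.77 and 2.88 in WT26 and 1.83 and 3.03 in RBC. Klf5, another Krüppel-like factor, had 1.17 and 1.6 in WT26 and 1.08 and 1.97 in RBC. Zfp42 (Rex1), a marker of undifferentiated ES cells, had 0.99 and 1.56 in WT26 and 0.97 and 1.42 in RBC. Tfcp2l1, a factor that sustains naive self-renewal, went the other way, with −0.96 and −1.80 in WT26 and −0.87 and −1.73 in RBC (difference 0.01, interval −0.90 to 0.92). Its locus overlaps 3 predicted genes, whose reads can be shared with it.

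Core pluripotency genes were mixed in both lines. Of 14 tested, 4 were enriched in each line and 3 in both. Pou5f1, the central POU factor of ES cells, had an enrichment near 0, at 0.27 and 0.02 in WT26 and 0.15 and −0.09 in RBC (difference −0.11, interval −0.78 to 0.55). Esrrb, an orphan nuclear receptor counted in the naive list above, had 0.14 and 0.95 in WT26 and 0.01 and 0.75 in RBC. It was called in neither line (adjusted p = 0.233 and 0.376, edgeR). Of 16 primed and germ layer genes, 7 were enriched in WT26 and 10 in RBC, 7 of them in both.

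Components of Fgf, Lif, Wnt and Tgf-beta signalling had a median enrichment of 1.01 in WT26 and 1.08 in RBC. Of 37 tested, 17 were enriched in WT26, 14 in RBC and 13 in both. Among the ligands, Bmp4 had 1.53 and 2.84 in WT26 and 1.56 and 2.84 in RBC, and Nodal had 1.84 and 2.81 in WT26 and 1.65 and 2.67 in RBC. Spry2, a feedback inhibitor of FGF signalling, had 1.62 and 2.59 in WT26 and 1.73 and 2.57 in RBC. Axin2, a target and inhibitor of Wnt signalling, had 0.84 and 1.82 in WT26 and 0.61 and 0.65 in RBC. It was called enriched in WT26 (adjusted p = 0.0374) and not in RBC (adjusted p = 0.337), and the difference of −0.81 had an interval of −2.28 to 0.67. Lefty1, an inhibitor of Nodal with low counts, had 0.41 and 1.37 in WT26 and 1.11 and 1.65 in RBC (difference 0.66, interval −1.12 to 2.43).

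The m6A machinery itself was represented in the enriched set. Of 13 genes in the list of writers, 5 were enriched in WT26, 4 in RBC and 4 in both. This list also holds Mettl16, Mettl5, Zcchc4, Pcif1 and Trmt112, which are not part of the METTL3 and METTL14 complex, so the counts are not those of the complex alone. Rbm15, an adaptor that recruits the complex to RNA, had the highest values of those described here, with 1.27 and 2.39 in WT26 and 1.23 and 2.26 in RBC. Zc3h13, which holds the complex in the nucleus, had 1.08 and 1.49 in WT26 and 1.20 and 1.63 in RBC. For Wtap, the regulatory subunit, the values were 0.65 and 1.62 in WT26 and 0.65 and 1.33 in RBC. The catalytic subunit gene Mettl3 had −0.25 and −0.19 in WT26 and −0.38 and −0.81 in RBC (difference −0.35, interval −1.04 to 0.33), and its partner Mettl14 had 0.09 and −0.53 in WT26 and 0.12 and −0.45 in RBC.

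The inputs of Mettl3 were 411.7 and 357.3 normalised reads in WT26 and 537.4 and 537.7 in RBC, and those of Mettl14 245.9 and 281.6 in WT26 and 274.3 and 373.6 in RBC, so both genes were transcribed in both lines. Among 15 readers and erasers, 3 were enriched in both lines and 2 depleted in both. The cytoplasmic readers Ythdf1, Ythdf2 and Ythdf3 were the enriched ones, with Ythdf2 at 1.29 and 2.21 in WT26 and 1.20 and 2.31 in RBC. Ythdc1, the nuclear reader, stayed at 0.39 and 0.44 in WT26 and 0.45 and 0.60 in RBC, and Ythdc2, a helicase reader, was at −1.27 and −2.31 in WT26 and −0.91 and −2.06 in RBC.

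The counts for other groups stand beside 12% of all genes and 2121 of 14222 protein-coding genes enriched in both lines. No group was tested against these shares. Of 29 Polycomb genes 4 were enriched in both, of 24 genes of H3K9 methylation and HP1 3, of 15 genes of DNA methylation and demethylation 3, of 50 splicing factor genes 3 and of 34 imprinted genes 6. Trim28, the corepressor that KRAB zinc finger proteins recruit, was depleted, at −0.94 and −1.85 in WT26 and −1.07 and −1.62 in RBC. Of 83 ribosomal protein genes, which have many near-identical pseudogenes, 7 were enriched in WT26 and 5 in RBC, and the median was 0.158 and 0.19. Of 9 tested genes of the 2-cell-like state, such as the Zscan4 cluster, 2 were enriched in WT26 and 0 in RBC, although the median enrichment was high, at 1.64 in WT26 and 1.44 in RBC. Their counts were low, with a median SE of the difference of 1.11, and the median difference was −0.166, or −0.628 with size factors from repeat rows.

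Nuclear noncoding RNAs had a median enrichment of −0.358 in WT26 and −0.27 in RBC. Malat1 had an enrichment of 0.04 and 0.37 in WT26 and 0.24 and 0.42 in RBC, and Neat1 of 0.57 and 0.00 in WT26 and −0.24 and −0.04 in RBC (difference −0.46, interval −1.25 to 0.34). Of 28 nuclear noncoding RNAs, 2 were enriched and 6 depleted in both lines. The RNA polymerase III products were far down: Rmrp, the RNA of RNase MRP, was at −7.18 and −7.69 in WT26 and −6.66 and −7.53 in RBC, and Rpph1, the RNA of RNase P, at −4.57 and −5.53 in WT26 and −4.04 and −5.00 in RBC. Of 123 small nucleolar RNAs, 0 were enriched and 74 were depleted in both lines, with a median of −1.87 in WT26 and −1.85 in RBC.

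Replication-dependent histone genes had a median difference of −0.213, and it was below 0 under all 4 scalings, at −0.280 with size factors from repeat rows. Within replicate numbers the median difference was −0.427 in replicate 1 and 0.201 in replicate 2, so the direction turned between them. Of 61 tested, 14 had a higher enrichment in RBC than in WT26. The median enrichment was −0.113 in WT26 and −0.407 in RBC, 10 genes were depleted in WT26 and 14 in RBC, and 0 differed between lines. These genes are near-identical copies, so the multi-mapped counting can divide reads between them, and their values are not independent of each other. Hist1h4i, an H4 gene, had −0.46 and −0.27 in WT26 and −1.20 and −1.47 in RBC, a difference of −0.98 (interval −1.83 to −0.13, unadjusted p = 0.0272, edgeR), with no overlap between the lines.

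**Figure D3:**
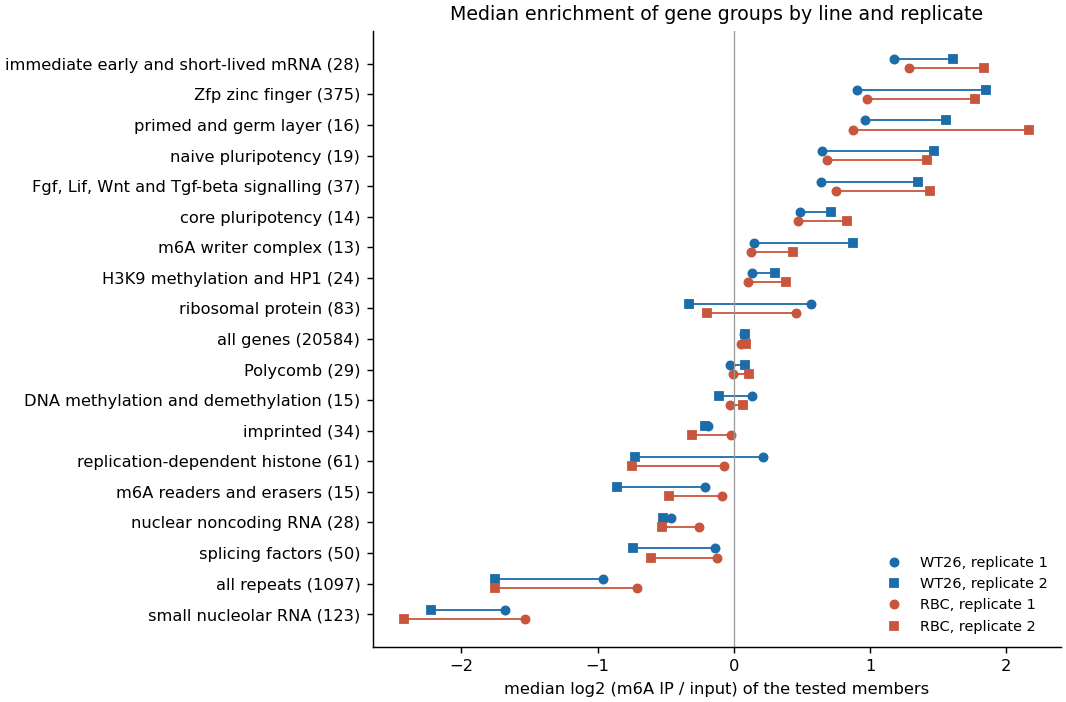
Median log2 ratio of m6A IP over input (x axis) over the tested members of each list (number tested in parentheses), for all genes and for all repeats, in replicate 1 (circles) and replicate 2 (squares) of WT26 and RBC. The lines have similar medians for most lists, and for the lists at the top and for repeats at the bottom replicate 2 lies further from 0 than replicate 1; replication-dependent histone genes have a median of −0.113 in WT26 and −0.407 in RBC in the fit over both replicates.

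The autosomal genes with the highest enrichment had low counts. The 5 genes with the highest enrichment in the lower of the lines were Gm43701, Gprin3, Gm45102, 4931440F15Rik and Mir6244, with means of 5.627 to 15.38 normalised reads and 0 to 4.5 in each input. At the other end were both annotated entries of Rnu3a, which lie at the same position and have the same counts in every library, Gm12896, Rmrp and Snora73a. Rnu3a, the U3 small nucleolar RNA, had 886.0 to 2405.9 normalised reads in the inputs and 0 to 7.5 in the IPs. Gm12896, a pseudogene, had 0 reads in the input of RBC replicate 2, so its value there is not interpretable. Snora73a had −7.41 and −8.09 in WT26 and −6.83 and −7.21 in RBC.

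Repeat subfamilies had a median enrichment below that of genes in both lines. Of 1097 tested, 639 were depleted in WT26 and 506 in RBC, 480 in both (75.1% and 94.9%), and 18 were enriched in WT26 and 20 in RBC, 15 in both (83.3% and 75%). The median enrichment was −1.29 in WT26 and −1.15 in RBC. With size factors taken from the repeats themselves the medians were 0.00333 and −0.00393, so these values are relative to genes.

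The median difference between the lines over repeats was 0.149, with 842 of 1097 higher in RBC, against 0.0211 over genes. It was 0.242 in replicate 1 and 0.00854 in replicate 2, and 0.00558 with size factors from repeats. Leaving out a replicate set 1 replicate number of a line against both numbers of the other. The median difference was then −0.17 without WT26 replicate 2 and −0.433 without RBC replicate 1. It was 0.609 without WT26 replicate 1 and 0.581 without RBC replicate 2. These values include the difference between replicate numbers. The median enrichment in replicates 1 and 2 was −0.961 and −1.75 in WT26 and −0.71 and −1.75 in RBC. For repeats with a mean of at least 50, the 95% interval of the difference lay within ±1 for 16.3% and within ±2 for 96.4% of 939 subfamilies, with a median half-width of 1.13. With the replicate number as a block it lay within ±1 for 86.9%, and the half-width was 0.475.

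Whole repeat classes, with the counts of their subfamilies summed, passed the test for a difference in no case (edgeR, adjusted p = 1 for each of 9 classes). The Satellite class was the one enriched in both, at a fitted 1.35 in WT26 and 1.39 in RBC, with a difference of 0.0366 ± 0.442 (SE). Most of its reads were those of MMSAT4, at 163458.2 of 174500 in the IP of WT26 replicate 2 and 123401.4 of 139100 in that of RBC replicate 2. Of 7 satellite subfamilies tested, 1 was enriched and 1 depleted in both lines, and the subfamily median was 0.0274 in WT26 and 0.7 in RBC. The DNA transposon class was depleted in both lines, at −1.71 and −1.51, whereas the SINE and LTR classes had −1.45 and −0.873 in WT26 and −1.31 and −0.785 in RBC with adjusted p-values above 0.05. The RNA class, with 1 subfamily, was lowest at −4.04 and −3.49.

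The LINE class had the most negative difference, −0.46 ± 0.607 (SE). Its normalised read counts were 1579000 and 1608000 in the WT26 inputs, 1698000 and 2779000 in the WT26 IPs, 1538000 and 1627000 in the RBC inputs and 1516000 and 1717000 in the RBC IPs. The IP of WT26 replicate 2 was thus the high one, and the difference was between −0.76 and −0.07 when each replicate was left out in turn. These fits set 1 replicate number of a line against both numbers of the other.

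Young L1 subfamilies, the LINEs with mobile copies in the mouse, were among the enriched repeats of both lines. L1Md_A had 71027.4 and 81576.7 normalised reads in the WT26 inputs, 184221.5 and 442014.5 in the WT26 IPs, 43144.4 and 38149.8 in the RBC inputs and 78088.6 and 123923.5 in the RBC IPs. Its enrichment was 1.37 and 2.44 in WT26 and 0.86 and 1.70 in RBC, called in both lines (adjusted p = 0.00711 and 0.0302). The difference of −0.72 had an interval of −1.94 to 0.49, and edgeR gave an unadjusted p of 0.222, or of 0.0116 (adjusted p = 1) when blocking on the replicate number. L1Md_A was lower in RBC within each replicate number, and its input level was also lower there, by a fitted log2 change of −0.91 that did not pass the test.

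L1Md_Gf had 1.74 and 2.78 in WT26 and 1.48 and 2.6 in RBC, the second highest enrichment among repeats in the lower of the lines (difference −0.27, interval −1.47 to 0.92). L1VL1 had 0.47 and 1.34 in WT26 and 0.28 and 0.76 in RBC, and its fitted ratio of 0.92 and 0.56 was past the 2-fold limit in neither line. The 3 repeats highest in both were RNERVK23-int, L1Md_Gf and MamGyp-int, the last with a mean of 13.53 normalised reads.

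Satellite repeats differed among themselves. MMSAT4 had 49162.7 and 40008.6 normalised reads in the WT26 inputs, 113890.0 and 163458.2 in the WT26 IPs, 40223.8 and 30812.9 in the RBC inputs and 106703.1 and 123401.4 in the RBC IPs. It was enriched by 1.21 and 2.03 in WT26 and 1.41 and 2.00 in RBC, with a difference of 0.06 (interval −0.86 to 0.98). The major satellite repeat, GSAT_MM, had 1794.6 and 579.9 normalised reads in the WT26 inputs, 5834.1 and 2530.5 in the WT26 IPs, 1532.2 and 564.2 in the RBC inputs and 4097.2 and 1466.5 in the RBC IPs. In all 4 pairs the IP was higher than the input, with ratios of 1.70 and 2.12 in WT26 and 1.42 and 1.38 in RBC, but the levels of replicates 1 and 2 differed widely and neither line passed the test (adjusted p = 0.0759 and 0.161). The difference of −0.40 had the wide interval −2.62 to 1.81.

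SYNREP_MM, the minor satellite repeat, had few reads. It had 199.6 and 446.7 normalised reads in the WT26 inputs and 47.2 and 47.7 in the WT26 IPs, against 254.1 and 248.6 in the RBC inputs and 165.9 and 82.5 in the RBC IPs. The enrichment was −2.07 and −3.21 in WT26 and −0.61 and −1.59 in RBC, without overlap. The difference of 1.75 had an interval of −0.30 to 3.80 (unadjusted p = 0.0882, edgeR). It went to 1.08 without WT26 replicate 2, where replicate 1 of WT26 is set against both replicates of RBC. With a block on the replicate number the interval was 0.18 to 3.27 (unadjusted p = 0.0312, edgeR), and the adjusted p did not pass the threshold.

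Endogenous retroviruses of the ERVK family gave both signs, each with the same sign in both lines. RNERVK23-int had 1.56 and 2.74 in WT26 and 1.59 and 2.63 in RBC (difference −0.10, interval −1.72 to 1.52). IAPEz-int, the internal part of the intracisternal A particle, had −0.71 and −1.20 in WT26 and −0.55 and −1.06 in RBC, and IAPEy-int had −0.68 and −1.48 in WT26 and −0.67 and −1.64 in RBC. The IAPEz-int difference was 0.14 with an interval of −0.69 to 0.97.

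**Figure D4:**
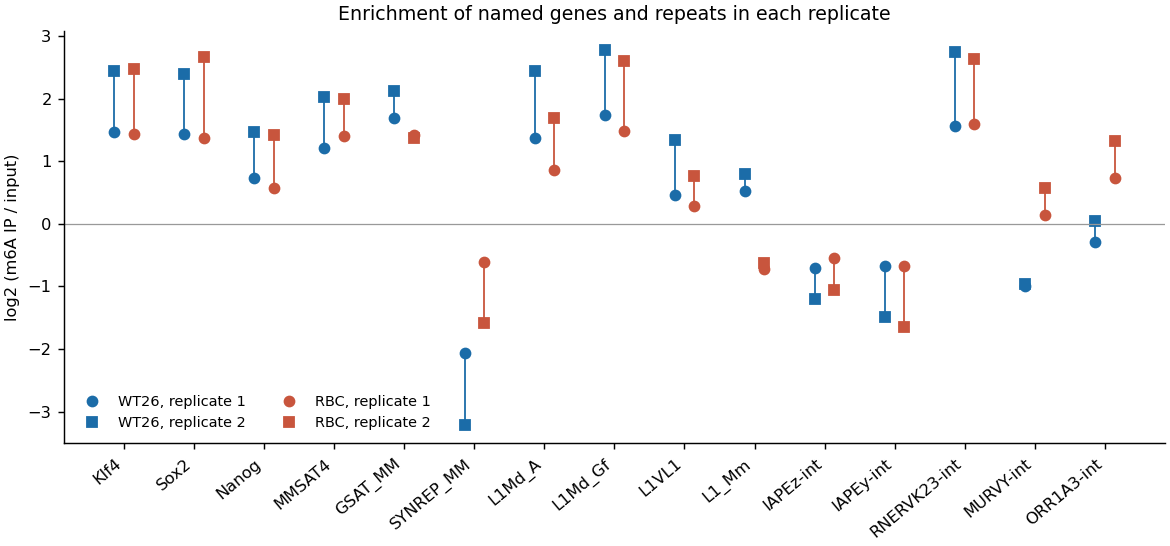
Log2 ratio of m6A IP over input (y axis) of 15 genes and repeats in replicate 1 (circles) and replicate 2 (squares) of WT26 and RBC; lines join the replicates of a line. Klf4, Sox2, Nanog, MMSAT4, L1Md_Gf, RNERVK23-int and the IAP repeats overlap between the lines, whereas SYNREP_MM, GSAT_MM, L1_Mm, MURVY-int and ORR1A3-int, of which the last 3 were chosen after their values were seen, do not.

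The features with the smallest p-values were chosen after their values were seen, and none passed the threshold. Nearest to it were MURVY-int (unadjusted p = 0.00128, edgeR), ORR1A3-int (0.00306) and Gm29480 (0.00311), all with an adjusted p of 1. Gm29480, antisense to Gpc1, had 0 reads in both WT26 IPs.

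MURVY-int is the internal part of an ERV1 retrovirus known for its many copies on the Y chromosome. It had 568.1 and 592.0 normalised reads in the WT26 inputs and 285.2 and 304.1 in the WT26 IPs, against 1690.7 and 1880.6 in the RBC inputs and 1877.9 and 2791.3 in the RBC IPs. All 4 RBC libraries were above all 4 of WT26, and the ratio of IP to input was below 0 on the log2 scale in WT26 (−0.99 and −0.96) and above it in RBC (0.15 and 0.57). The difference was 1.36 with an interval of 0.63 to 2.09. A block on the replicate number in edgeR lowered the unadjusted p to 0.000121, with an adjusted p of 0.715. The input level itself differed between lines, by a log2 change of 1.62 (adjusted p = 0.00632, edgeR).

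ORR1A3-int, the internal part of a MaLR retrotransposon, had 3964.8 and 3520.3 normalised reads in the WT26 inputs and 3245.4 and 3619.9 in the WT26 IPs, against 6480.8 and 6561.9 in the RBC inputs and 10850.7 and 16510.3 in the RBC IPs. It was enriched in RBC (0.74 and 1.33, adjusted p = 0.0105) and close to the input in WT26 (−0.29 and 0.04, adjusted p = 0.7), and the difference was 1.19 (interval 0.48 to 1.91). A block on the replicate number in edgeR lowered the unadjusted p to 3.04e-05, the lowest of all features in that fit, with an adjusted p of 0.411. Its input was also higher in RBC, by a log2 change of 0.80 that did not pass the test.

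L1_Mm, a subfamily of L1, went the other way. It had 11841.8 and 18082.9 normalised reads in the WT26 inputs and 16947.5 and 31377.9 in the WT26 IPs, against 28872.0 and 37354.7 in the RBC inputs and 17560.5 and 24232.3 in the RBC IPs. The IP was above the input in both WT26 replicates (0.52 and 0.80) and below it in both RBC replicates (−0.72 and −0.62), for a difference of −1.36 (interval −2.44 to −0.27, unadjusted p = 0.0177, edgeR). A block on the replicate number in edgeR lowered the unadjusted p to 3.64e-05, with an adjusted p of 0.411. The IP levels of the lines overlapped and the inputs did not, with RBC higher.

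**Figure D5:**
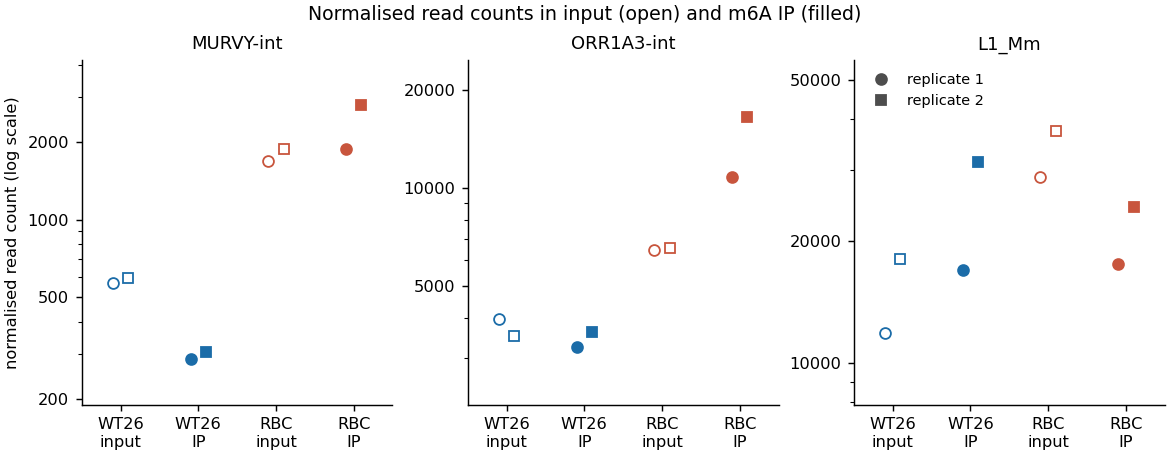
Normalised read counts (log scale) of MURVY-int, ORR1A3-int and L1_Mm in the input (open) and the m6A IP (filled) of replicates 1 (circles) and 2 (squares) of WT26 and RBC. For MURVY-int and ORR1A3-int the RBC inputs are above the WT26 inputs and the IPs are further apart still, whereas for L1_Mm the inputs differ and the IPs overlap.

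ERVB7_4-LTR_MM had 1.17 and 1.12 in WT26 and 0.41 and 0.28 in RBC, and Tigger17c, a DNA transposon, had −1.01 and −1.29 in WT26 and −0.43 and −0.23 in RBC. The sum of counts over a subfamily comes from many copies, and which copies were read was not tested.

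Among genes with a mean of at least 50, those chosen after their values were seen for a small p were mostly noncoding or overlap other genes. Snora73b, a small nucleolar RNA in the Snhg3 and Rcc1 locus, had 1977.7 and 1365.7 normalised reads in the WT26 inputs and 20.4 and 19.8 in the WT26 IPs, against 1034.2 and 646.2 in the RBC inputs and 43.7 and 38.2 in the RBC IPs. It was depleted in both lines, by −6.56 and −6.07 in WT26 and −4.55 and −4.06 in RBC, and the difference was 2.02 (interval 0.54 to 3.51, unadjusted p = 0.0111, edgeR). A block on the replicate number in edgeR lowered the unadjusted p to 0.000158, with an adjusted p of 0.715. Rn7s2, a 7SL RNA, had −7.27 and −6.85 in WT26 and −5.06 and −6.41 in RBC.

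Zfp993, a zinc finger gene, had 412.5 and 478.5 normalised reads in the WT26 inputs and 445.1 and 597.3 in the WT26 IPs, against 299.0 and 199.4 in the RBC inputs and 165.4 and 128.8 in the RBC IPs. The enrichment was 0.11 and 0.32 in WT26 and −0.85 and −0.63 in RBC, for a difference of −0.98 (interval −1.74 to −0.23, unadjusted p = 0.0146, edgeR), and the gene overlaps Gm26573. Fam196a, which lies in Dock1, had −0.13 and 0.30 in WT26 and −0.55 and −0.97 in RBC. Armc9 had −0.32 and −0.14 in WT26 and −0.75 and −1.21 in RBC, and Gm17494 −0.51 and −0.48 in WT26 and 0.68 and 0.49 in RBC.

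The imprinted gene Usp29 was close to this set, with −0.04 and 0.43 in WT26 and 0.80 and 2.09 in RBC (difference 1.19, interval −0.06 to 2.45, unadjusted p = 0.0603, edgeR). Rps13-ps1, a processed pseudogene of a ribosomal protein gene, had 367.7 and 702.5 normalised reads in the WT26 inputs and 3.4 and 8.8 in the RBC inputs, with 0.5 and 1.0 in the RBC IPs, so its difference in enrichment rests on a handful of RBC reads.

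The input level, which is part of each enrichment, differed between the lines for some genes. With an adjusted p not above 0.05 and a change past 2-fold, 116 of 20584 genes (0.564%) differed in input, 57 higher and 59 lower in RBC. No gene of the 20584 differed in enrichment, so none of the 116 did. Of the 116, 3 had an unadjusted p under 0.05 for enrichment (edgeR), against 117 of all 20584 genes (0.568%). Over the 116 the fitted enrichments of the lines had r = 0.55, and the median difference in enrichment was −0.161 for genes with a higher input in RBC and 0.0959 for those with a lower one. In the 78 of them with a mean of at least 50, r was 0.759, 11 were enriched in both lines, and these median differences were −0.0737 and 0.0191. In bulk RNA, fewer cells that express a gene and less RNA per cell cannot be told apart. The number of genes with a different input depended on the fit, from 24 with size factors from repeats to 524 with the replicate number as a block.

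Several genes with a large difference in input, chosen after their values were seen, had a small one in enrichment. Nod1, a cytosolic sensor of bacterial peptidoglycan, had 307.2 and 331.6 normalised reads in the WT26 inputs and 13.5 and 17.7 in the RBC inputs (log2 change −4.35, adjusted p = 0.000199, edgeR), and its enrichment was 0.83 and 1.36 in WT26 and 1.37 and 1.48 in RBC. In the RNA-seq table of the series it had 425.9 and 516.4 normalised reads in WT26 and 21.8 and 30.6 in RBC. Galnt6, an enzyme that starts O-glycosylation, was lower in the RBC input by a log2 change of −3.74, with an enrichment of 0.81 and 1.38 in WT26 and 0.58 and 2.44 in RBC.

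Peg3, an imprinted zinc finger gene, had 2469.6 and 1948.6 normalised reads in the WT26 inputs and 495.8 and 496.0 in the RBC inputs (log2 change −2.16, adjusted p = 0.00166, edgeR). Its enrichment was 0.63 and 1.13 in WT26 and 0.70 and 0.99 in RBC, a difference of −0.02 (interval −0.82 to 0.77). Myo7a, an unconventional myosin, was higher in the RBC input by a log2 change of 4.07 and stayed near the input in both IPs, at 0.24 and −0.18 in WT26 and −0.24 and −0.34 in RBC. Cbr3, a carbonyl reductase, was lower in the RBC input by a log2 change of −2.37 and had 1.5 and 2.29 in WT26 and 2.28 and 3.16 in RBC, a difference of 0.84 with an interval of −0.36 to 2.04. Gm13140, a processed pseudogene, was lower in the RBC input by −3.15 and enriched in both lines, at 1.59 and 2.40 in WT26 and 1.09 and 1.86 in RBC.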

How the data were processed

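The authors deposited raw read counts per gene and per repeat subfamily, without normalization; reads had been trimmed (cutadapt 1.8.1), aligned to the GRCm38 genome with many positions allowed per read (STAR 2.6.0c) and counted with TEtranscripts. The strand setting of the counting is not given in the sources used here. Every column was assigned by its label (0 columns without a sample), and 47310 of 47937 gene identifiers had a symbol and position in the GENCODE annotation. The RNA-seq counts served as values only. The members, gene lists and tests were chosen with earlier results of these data known.

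The test was the quasi-likelihood test of edgeR 4.0.16 in R 4.3.3 (glmQLFit, glmQLFTest; size factors of DESeq2 1.42.0; filterByExpr; Benjamini-Hochberg adjustment over the 22621 rows tested) on all 16 MeRIP-seq libraries in 8 groups, so that the spread was shared; the common coefficient of variation was 0.273. The number of biological replicates is 2 per group. The p-values rest on the spread between replicates pooled over the 8 groups, knockout libraries included, and not on the control lines alone. Without a block on the replicate number this spread includes the difference between numbers. Class totals were fitted in place of the subfamilies (21533 rows). The enrichment of 1 replicate is log2 of normalised IP over input counts with a pseudocount of 0.5. The procedure was tested on simulated data. DESeq2 was also the alternative test, and other scalings, filters, blocks and left-out replicates were tried.

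The text names the genes and repeats that the study discusses for MeRIP, those that differ (none did), those that are the 5 highest or lowest genes or 3 highest repeats in both lines, and the 3 nearest to the threshold. Other list members, the features with small p-values and the genes that differ in input were chosen after their values were seen. The input and IP of a replicate come from the same RNA by the study's methods. Deviations from the group means correlated at 0.239 in WT26 and 0.22 in RBC between input and IP of a number, and at 0.802 between the IPs of the lines; with 2 numbers per line this does not establish a pairing across lines. Totals set counting error only.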

Additional observations from a re-analysis of the deposited data

How the results depend on the processing

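The 0 genes and 0 repeats that differ in enrichment remained 0 under TMM, size factors from repeats, scaling by library size, at least 10 counts in every control library, DESeq2, a fit of the 8 control libraries alone, an added limit of a 2-fold difference and without each replicate (0 to 0). Without a filter on low counts 7 genes were called (n-R5-8s1, Gm2606, Gm25732, Hist1h2ap, Gm8178, Gm19658 and Gm47305), of which all but Gm25732 had 2 to 5 of the 8 control libraries at or under 3 reads, repeats stayed at 0, and 3 features were enriched in 1 line and depleted in the other. With the replicate block on the pair of input and IP the counts were 0 and 0, and 3138, 2868 and 2448 features were enriched in WT26, RBC and both. With the replicate block on the number, added after seeing the data, 0 differed, 2057, 1884 and 1480 were enriched and 524 genes differed in input; in the 8 control libraries alone this block called 1 gene, Gm47305, which had 0 reads in 3 of 4 control IPs, with 1739, 1550 and 1249 enriched and 418 differing in input. The blocks changed no other call of a difference between RBC and WT26.

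Of features enriched in WT26, RBC and both, scaling by library size gave 5507, 5628 and 4805 and size factors from repeats 11401, 9894 and 9165, because they move the zero of the enrichment. Leaving out each replicate in turn gave 0 to 3200 in WT26, 0 to 2927 in RBC and 0 to 2133 in both, with the 0 coming from leaving out replicate 2 of either line; the lone replicate left in a line was assumed to vary like the other groups. Genes that differ in input numbered 24 with size factors from repeats, 368 without a filter, 57 with at least 10 counts in every control library, 247 with DESeq2, 43 in the 8 control libraries alone and 25 to 41 without each replicate. Over 80 named features and 14 alternatives (1108 values), 0 differences passed the threshold and the lowest adjusted p was 0.0727. The genes called without a filter or with the replicate block, Hist1h2ap and Gm47305 among them, were not in this set of 80, so the 0 does not cover them. The sign of an uncalled difference changed in 139 values of 53 features, 93 of them on leaving out a replicate, and in 17 of 126 values of the repeat classes. Leaving out a replicate sets 1 replicate number of a line against both of the other, so those 93 values include the difference between numbers. The causes were not tested. More reads narrowed the intervals little: the median half-width was 0.958 in genes with a mean of at least 50 and 0.86 in those with at least 500.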
